A study of Mus musculus with 8 samples.

Results

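The genes described here encode the protein subunits of the cytosolic ribosome and their close relatives. They were all protein-coding RefSeq genes of GRCm38.p6 whose symbol starts with Rpl or Rps and a digit, or with Rplp, without the Rps6k kinases. The rule found 90 genes among 21631 protein-coding genes on the autosomes and X, and 4 of the 90 lie on X. Of these, 76 encode standard subunits, 46 of the large and 30 of the small subunit. The other 14 are 7 paralogs, 6 copies of other subunit genes that RefSeq lists as protein-coding, and Rps19bp1, which encodes a protein that binds Rps19.

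Every cell translates its messenger RNA on the ribosome, a particle of ribosomal RNA and one copy of most subunit proteins. The subunit genes lie scattered over the genome and are transcribed at high levels in nearly all tissues. Many of their transcripts begin within a run of pyrimidines, the terminal oligopyrimidine tract through which the mTOR pathway and Larp1 control their translation, and binding sites for ETS factors, YY1 and Sp1 are known from many of their promoters.

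Mta2 and Mbd3 belong to the NuRD complex (nucleosome remodelling and deacetylase), which moves nucleosomes and removes acetyl groups from histones. Zbtb7a binds DNA through zinc fingers. Their binding was profiled by chromatin immunoprecipitation and sequencing (ChIP-seq) in kidney cortex of mice aged 2 months, with 2 biological replicates for each of the Mta2, Mbd3, Zbtb7a and Input groups. The sample titles carry the same 2 numbers in all 4 groups. All 8 libraries carry the same genotype, Mta2flx/flx, that is Mta2 alleles flanked by loxP sites, and the labels name no Cre. No group that lacks Mta2 is among the samples. Each factor has 1 peak list that stands for both replicates. On the autosomes and X the Mta2 list holds 149855 peaks, the Mbd3 list 134248 and the Zbtb7a list 124616. The sources used here do not say how the replicates were combined. No value therefore has an SD or an n, and no test between groups was possible. No separate list of Input peaks was used here. The fold of a peak is the authors' own value for enrichment at its summit over background. Kidney cortex holds many cell types, and binding in fewer cells cannot be told apart from weaker binding in each cell. As a check of the tissue, 14 of 14 kidney cortex marker genes had summits of all 3 factors in the gene or within 1 kb of its ends, against 6 of 8 marker genes of other tissues (75%) and 74.7% of all protein-coding genes, so this window did not set the other-tissue markers apart from genes at large. Within 1 kb of a listed start the counts were 10 of 11 kidney cortex markers, against 0 of 5 other-tissue markers and 64.0% of all genes.

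Nearly all ribosomal protein genes carried all 3 factors. A Mta2 summit lay in the gene or within 1 kb of its ends at 86 of the 90 genes (95.6%), beside 77.7% of all protein-coding genes. Mbd3 and Zbtb7a also had a summit at 86 genes each, beside 76.5% and 76.0% of all genes. The same 86 genes carried all 3 factors, against 74.7% of all genes, and no gene carried only 1 or 2 of them. All 76 standard subunit genes were among the 86, from Rps2 and Rpl3 in the core of the particle to the stalk genes Rplp0, Rplp1 and Rplp2. Around listed transcription starts, which the RefSeq promoter table gives for 69 of the 90 genes, 64 genes (92.8%) had a summit of each factor within 1 kb, beside 67.8% of 17274 genes for Mta2, 66.5% for Mbd3, 66.5% for Zbtb7a and 64.0% for all 3. All 56 standard subunit genes with a listed start were among those 64.

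The 4 genes without a peak of any factor were Rpl10l, Rpl39l, Rpl31-ps12 and Rps27rt. Rpl10l and Rpl39l are paralogs of Rpl10 and Rpl39 known for expression in the testis. Rpl31-ps12 and Rps27rt are named as copies of Rpl31 and Rps27. Absence of a peak means only that signal missed the threshold of the peak caller, not that a gene was unbound. Reads from near-identical copies can be hard to place, and the treatment of such reads was not given in the sources used here. That limit also holds for 312 annotated ribosomal protein pseudogenes, of which 24 (7.69%) had all 3 factors and 276 had none. Mta2 reached 33 of these pseudogenes (10.6%), Mbd3 32 (10.3%) and Zbtb7a 26 (8.33%), beside 12.5%, 11.4% and 10.6% of all 10328 pseudogenes. Of the 36 ribosomal protein pseudogenes with any peak, 11 lie near a protein-coding gene, beside 80 of all 312, a similar share.

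**Figure D1:**
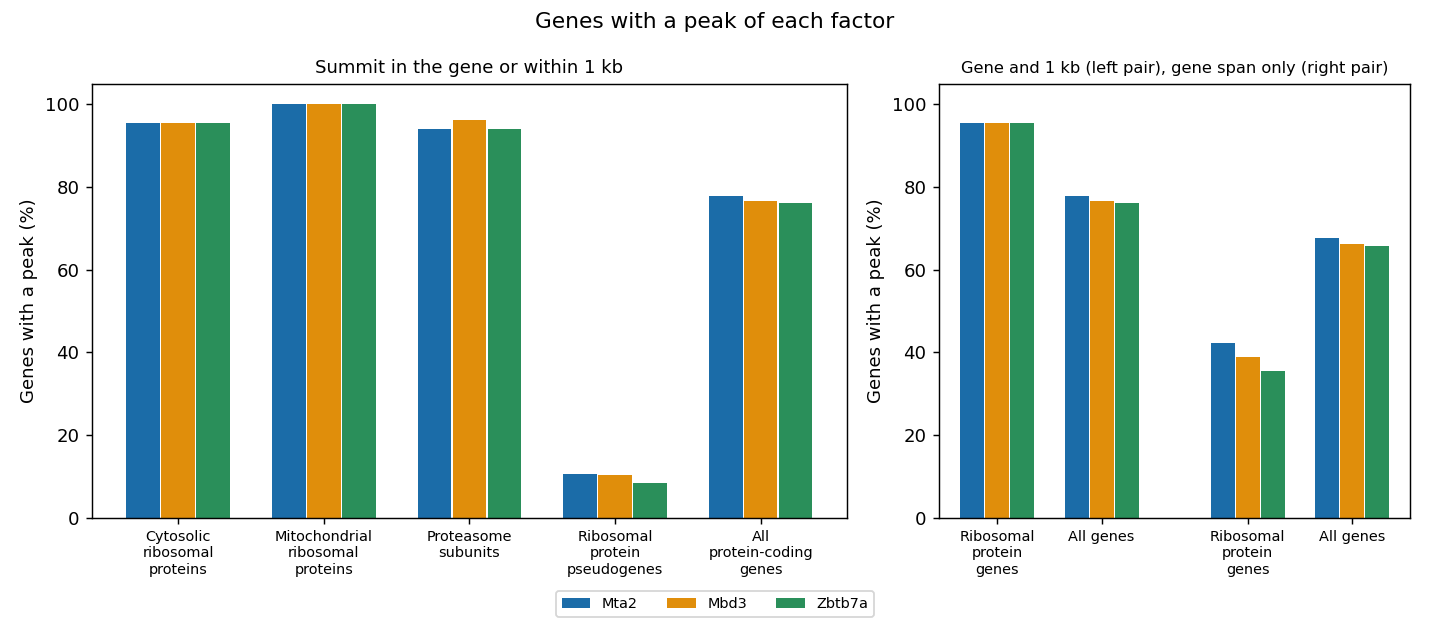
Share of genes with a peak of Mta2, Mbd3 or Zbtb7a (y axis, percent). Left, summit in the gene or within 1 kb, for the 90 cytosolic ribosomal protein genes (95.6% for each factor), 78 mitochondrial ribosomal protein genes, 51 proteasome subunit genes, 312 ribosomal protein pseudogenes and all 21631 protein-coding genes; right, ribosomal protein genes and all genes with the same window (left pair) and with the gene span alone (right pair), where the ribosomal protein genes drop to 42.2%, 38.9% and 35.6%.

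The summits lay at the start of the gene and mostly just outside its span. With the 1 kb flanks removed, a Mta2 summit inside the span was left at 38 ribosomal protein genes (42.2%), a Mbd3 summit at 35 (38.9%), a Zbtb7a summit at 32 (35.6%) and all 3 at 29 (32.2%). The same shares of all genes were 67.5%, 66.2%, 65.8% and 61.1%, so the order between ribosomal protein genes and all genes turned with this window. Ribosomal protein genes are short, with a median span of 3169.5 bp, against 17329 bp for all protein-coding genes. Relative to the nearest listed start, the strongest summit within 1 kb lay at a median of 57.5 bp upstream for Mta2, 48 bp upstream for Mbd3 and 72 bp upstream for Zbtb7a. It lay upstream of the start at 81.3%, 75% and 78.1% of the 64 genes, beside 66.4%, 64.3% and 62.0% of all genes with such a peak. Summits thus lay mostly on the promoter side. A summit within 100 bp of the start was found at 71.9% for Mta2, 68.8% for Mbd3 and 65.6% for Zbtb7a, beside 58.8%, 59.3% and 57.1% of all genes. Outside 250 bp the plot of summit positions is nearly empty for ribosomal protein genes, with 90.6%, 92.2% and 90.6% of the 64 genes inside it. The same shares of all genes were 81.8%, 81.4% and 81.0%. Of the 21 genes without a listed start, 15, 15 and 14 had the strongest summit within 250 bp of either gene end.

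**Figure D2:**
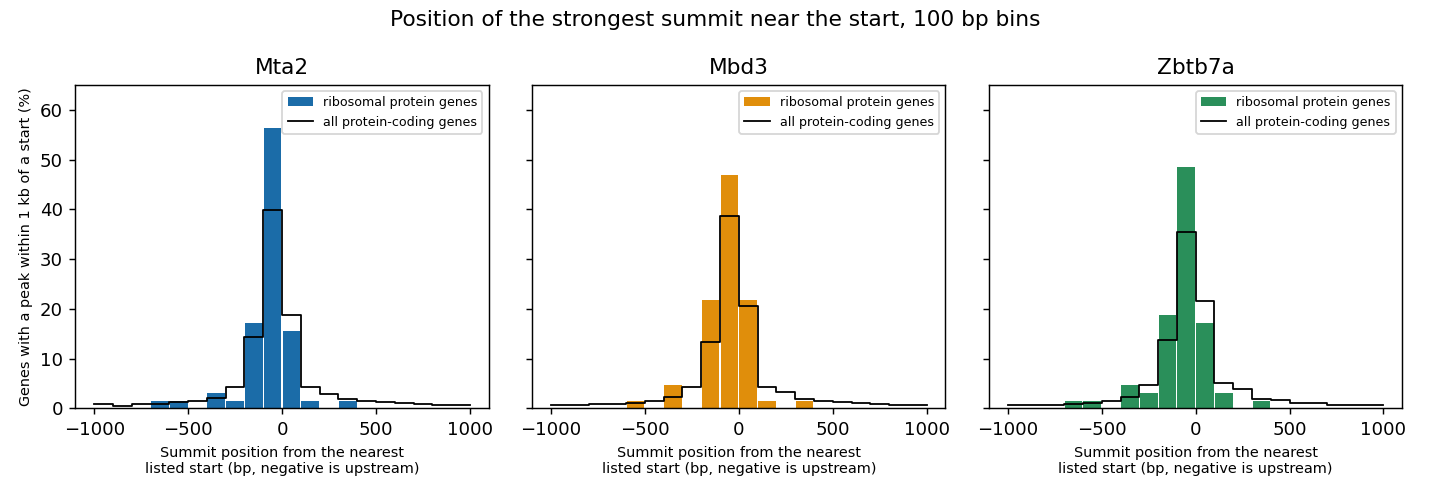
Position of the strongest Mta2, Mbd3 and Zbtb7a summit relative to the nearest listed start (x axis, bp in bins of 100, negative is upstream) as a share of genes with such a summit (y axis, percent). Coloured bars stand for 64 ribosomal protein genes and the black line for all protein-coding genes; the tallest bin, just upstream of the start, holds 36, 30 and 31 of the 64 genes.

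The summits of the 3 factors nearly coincided. At the 86 genes with all 3, the strongest Mta2 and Mbd3 summits were a median of 17 bp apart, the strongest Mta2 and Zbtb7a summits 21 bp and the strongest Mbd3 and Zbtb7a summits 22 bp. Over all genes these medians were 19, 31 and 29 bp. The strongest intervals of all 3 factors overlapped at 82 of the 86 genes, beside 81.1% of all genes with all 3. The exceptions were Rpl18, Rpl36, Rpl3l and Rps18, where a factor had its strongest summit at another place in or near the gene than the others. Most ribosomal protein genes had a single summit of a factor, 51 of 86 for Mta2 (59.3%), 54 for Mbd3 (62.8%) and 55 for Zbtb7a (64.0%), beside 26.7%, 28.5% and 29.8% of all genes with a peak. Most of this contrast was absent within 1 kb of a listed start, where 93.8%, 98.4% and 96.9% of ribosomal protein genes with a peak had a single summit, beside 88.5%, 87.6% and 86.8% of all genes. At Rps19, by contrast, 4 Mta2, 4 Mbd3 and 6 Zbtb7a summits lay in the gene or its flanks.

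The bases around the start are shown for genes on which the results below turn. The first 6 are standard subunit genes with a high rank in at least 1 list, Rpl37a is among the lowest, and Rpl39l has no peak. Each stretch runs from 150 bases before to 20 bases after the first listed start, 5′ to 3′ on the strand of the gene, from RefSeq for GRCm38.p6. Capitals mark 2 kinds of letters, CCGGAA on either strand (the core of ETS sites, TTCCGG on the other strand) and CCTTT or TCTTT within 10 bases of the start, as in a pyrimidine initiator. The windows are chr7:109519045-109519214, plus strand for Rpl27a; chr15:5116463-5116632, plus strand for Rpl37; chr11:101442095-101442264, plus strand for Rpl27; and chr17:27635225-27635394, minus strand for Rps10. The others are chr14:18270967-18271136, minus strand for Rpl15, chr7:4792815-4792984, plus strand for Rpl28, chr1:72711110-72711279, plus strand for Rpl37a and chr16:10170078-10170247, plus strand for Rpl39l.
Rpl27a: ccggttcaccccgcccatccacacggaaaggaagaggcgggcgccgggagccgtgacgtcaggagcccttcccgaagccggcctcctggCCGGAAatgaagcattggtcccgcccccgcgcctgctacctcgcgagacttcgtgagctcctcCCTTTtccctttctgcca
Rpl37: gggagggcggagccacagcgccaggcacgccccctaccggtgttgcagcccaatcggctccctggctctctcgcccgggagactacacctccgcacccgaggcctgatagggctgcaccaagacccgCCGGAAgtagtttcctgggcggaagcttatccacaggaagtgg
Rpl27: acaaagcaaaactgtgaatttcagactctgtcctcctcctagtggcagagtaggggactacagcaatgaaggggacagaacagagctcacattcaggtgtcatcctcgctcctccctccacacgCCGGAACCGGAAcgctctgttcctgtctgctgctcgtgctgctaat
Rps10: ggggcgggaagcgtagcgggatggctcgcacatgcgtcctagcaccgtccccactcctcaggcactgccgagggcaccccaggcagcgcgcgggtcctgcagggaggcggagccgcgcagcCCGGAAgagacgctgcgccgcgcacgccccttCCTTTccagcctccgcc
Rpl15: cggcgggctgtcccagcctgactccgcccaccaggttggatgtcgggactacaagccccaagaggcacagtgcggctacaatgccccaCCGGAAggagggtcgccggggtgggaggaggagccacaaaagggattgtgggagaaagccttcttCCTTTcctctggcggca
Rpl28: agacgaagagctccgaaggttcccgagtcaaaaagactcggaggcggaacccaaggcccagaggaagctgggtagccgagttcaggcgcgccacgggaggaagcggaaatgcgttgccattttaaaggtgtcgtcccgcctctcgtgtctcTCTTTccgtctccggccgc
Rpl37a: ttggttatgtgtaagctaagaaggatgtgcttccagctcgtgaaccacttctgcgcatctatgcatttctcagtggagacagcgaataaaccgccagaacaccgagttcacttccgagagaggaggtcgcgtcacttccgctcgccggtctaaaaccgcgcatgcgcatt
Rpl39l: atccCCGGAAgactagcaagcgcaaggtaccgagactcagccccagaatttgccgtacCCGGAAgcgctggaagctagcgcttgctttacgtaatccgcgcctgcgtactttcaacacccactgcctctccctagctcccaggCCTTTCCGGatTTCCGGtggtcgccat
Rpl27a, Rps10 and Rpl15 hold both kinds of letters, Rpl37 and Rpl27 the ETS core alone, with a tandem pair in Rpl27, and Rpl28 the initiator alone. Rpl37a holds neither. Rpl6, another low standard subunit gene, is not printed, but the same stretch of Rpl6 holds the ETS core alone. Its folds were 6.50 for Mta2, 6.20 for Mbd3 and 7.29 for Zbtb7a, so the ETS core also occurs at low folds. The printed genes are examples and not a comparison of high and low genes. Rpl39l holds both, in part within 1 run of capitals, and had no peak of any factor, so the letters occur with and without a peak.

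Over the 69 genes with a listed start, letters of some known elements were frequent. The window searched was 250 bases before to 50 after the start, on both strands, and the gene's own strand for the initiator. The initiator letters CCTTT or TCTTT within 10 bases of the start occurred in 15 ribosomal protein genes (21.7%), against 3.53% of all 17274 genes and 3.26% of the 11062 genes with all 3 factors near a start. The ETS core CCGGAA occurred in 32 (46.4%), against 19.3% of all genes and 27.1% of those with all 3 factors. ATGGCG, a part of the YY1 site, occurred in 20 (29.0%), against 11.3% and 15.2%. Each of these 3 kinds of letters was found in a larger share of ribosomal protein genes than of either other set. The GC box GGGCGG, known for Sp1, occurred in 39 (56.5%), against 46.9% of all genes and 64.4% of those with all 3 factors. Within the 150 bases before the start alone, the GC box shares were 37.7% of ribosomal protein genes and 38.8% of all genes, so its order depended on the window. GCGCATG, a part of the NRF1 site, was found in 7 genes (10.1%, against 4.94% of all genes), and TATAAA in 8 (11.6%, against 13.4%). The E box CACGTG of Myc and Max was found in 5 (7.25%, against 7.99%).

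CTTCCCC, a part of the gamma-globin promoter element to which Zbtb7a is known to bind, occurred in 4 ribosomal protein genes (5.80%), against 10.2% of all genes and 11.4% of those with all 3 factors. These letters were therefore no more frequent here than elsewhere. The median fold of the start peak differed little between genes with and without the ETS core, at 15.4 and 14.3 for Mta2, 14.3 and 13.5 for Mbd3 and 12.3 and 10.6 for Zbtb7a (30 genes with, 34 without). With the GC box (38 genes) and without it (26 genes), the medians were 16.7 and 12.8 for Mta2, 15.8 and 12.8 for Mbd3, and 12.8 and 9.67 for Zbtb7a. The order was not the same for all letters. With the YY1 letters (17 genes) and without them (47 genes), the medians were 13.6 and 16.2 for Mta2, 12.9 and 14.4 for Mbd3, and 11.6 and 10.9 for Zbtb7a. Genes with the NRF1 letters (7) had lower medians than the 57 without, at 12.5 and 16.0 for Mta2, 10.1 and 14.4 for Mbd3, and 7.62 and 12.1 for Zbtb7a. Genes with TATAAA (7) also had lower medians than the 57 without, at 12.5 and 16.0 for Mta2 and 8.50 and 11.6 for Zbtb7a, and the Mbd3 median was lower too. Only 5 genes with a start peak held the E box and 4 held CTTCCCC, with Mta2 medians of 16.9 and 17.3, against 14.8 and 14.3 without them. A match to letters is no evidence of a bound site, and whether the letters bear on the folds was not tested.

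**Figure D3:**
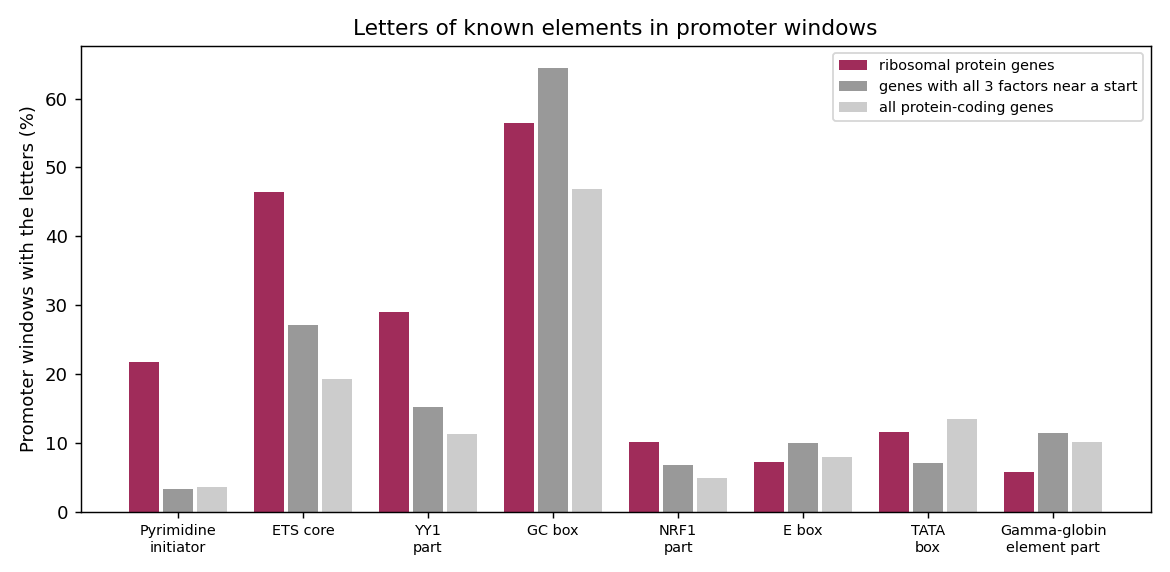
Share of promoter windows with the letters of known elements (y axis, percent) in 69 ribosomal protein genes, in 11062 genes with all 3 factors near a start and in 17274 protein-coding genes. Pyrimidine initiator, ETS core and YY1 letters stand above both other groups, at 21.7%, 46.4% and 29.0% of ribosomal protein genes, and the GC box share of 56.5% lies between those of the other groups.

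Occupancy was common at these genes but the peaks were of middling size. The strongest peak of a ribosomal protein gene had a median fold of 14.7 for Mta2 (range 3.10 to 46.9), against 16.8 for all genes with a Mta2 peak. The medians were 14.2 (2.28 to 39.4) against 15.4 for Mbd3, and 11.9 (2.79 to 64.1) against 16.2 for Zbtb7a. To set factors side by side, each gene was ranked by fold among all genes with a peak of that factor. The median percentile of the ribosomal protein genes was 41.5 in the Mta2 list, 44.7 in the Mbd3 list and 34.7 in the Zbtb7a list. Of the 86 genes, 36, 37 and 28 stood above the median of all genes, and 2, 3 and 2 stood in the top 10%. With peaks limited to 1 kb around any listed start (64 ribosomal protein genes), the Mta2 and Mbd3 medians were close to those of all genes (14.8 against 15.3, and 14.2 against 14.1). The Zbtb7a median was again lower there (11.2 against 14.9, median percentile 35.0).

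Both subunits of the ribosome had similar values. Genes of the large subunit had median folds of 14.4 for Mta2, 14.1 for Mbd3 and 12.3 for Zbtb7a, and genes of the small subunit 16.2, 14.7 and 12.2. The range within each subunit, from 6.28 to 40.9 and from 9.16 to 46.9 for Mta2, was far wider than the difference between them. Genes that were high for one factor tended to be high for the others. Across the 86 genes, Spearman's rho was 0.915 between Mta2 and Mbd3 folds, 0.818 between Mta2 and Zbtb7a and 0.779 between Mbd3 and Zbtb7a, close to the 0.936, 0.850 and 0.855 over all genes with both. These points share the replicates and the chromatin, so the correlations are a description.

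**Figure D4:**
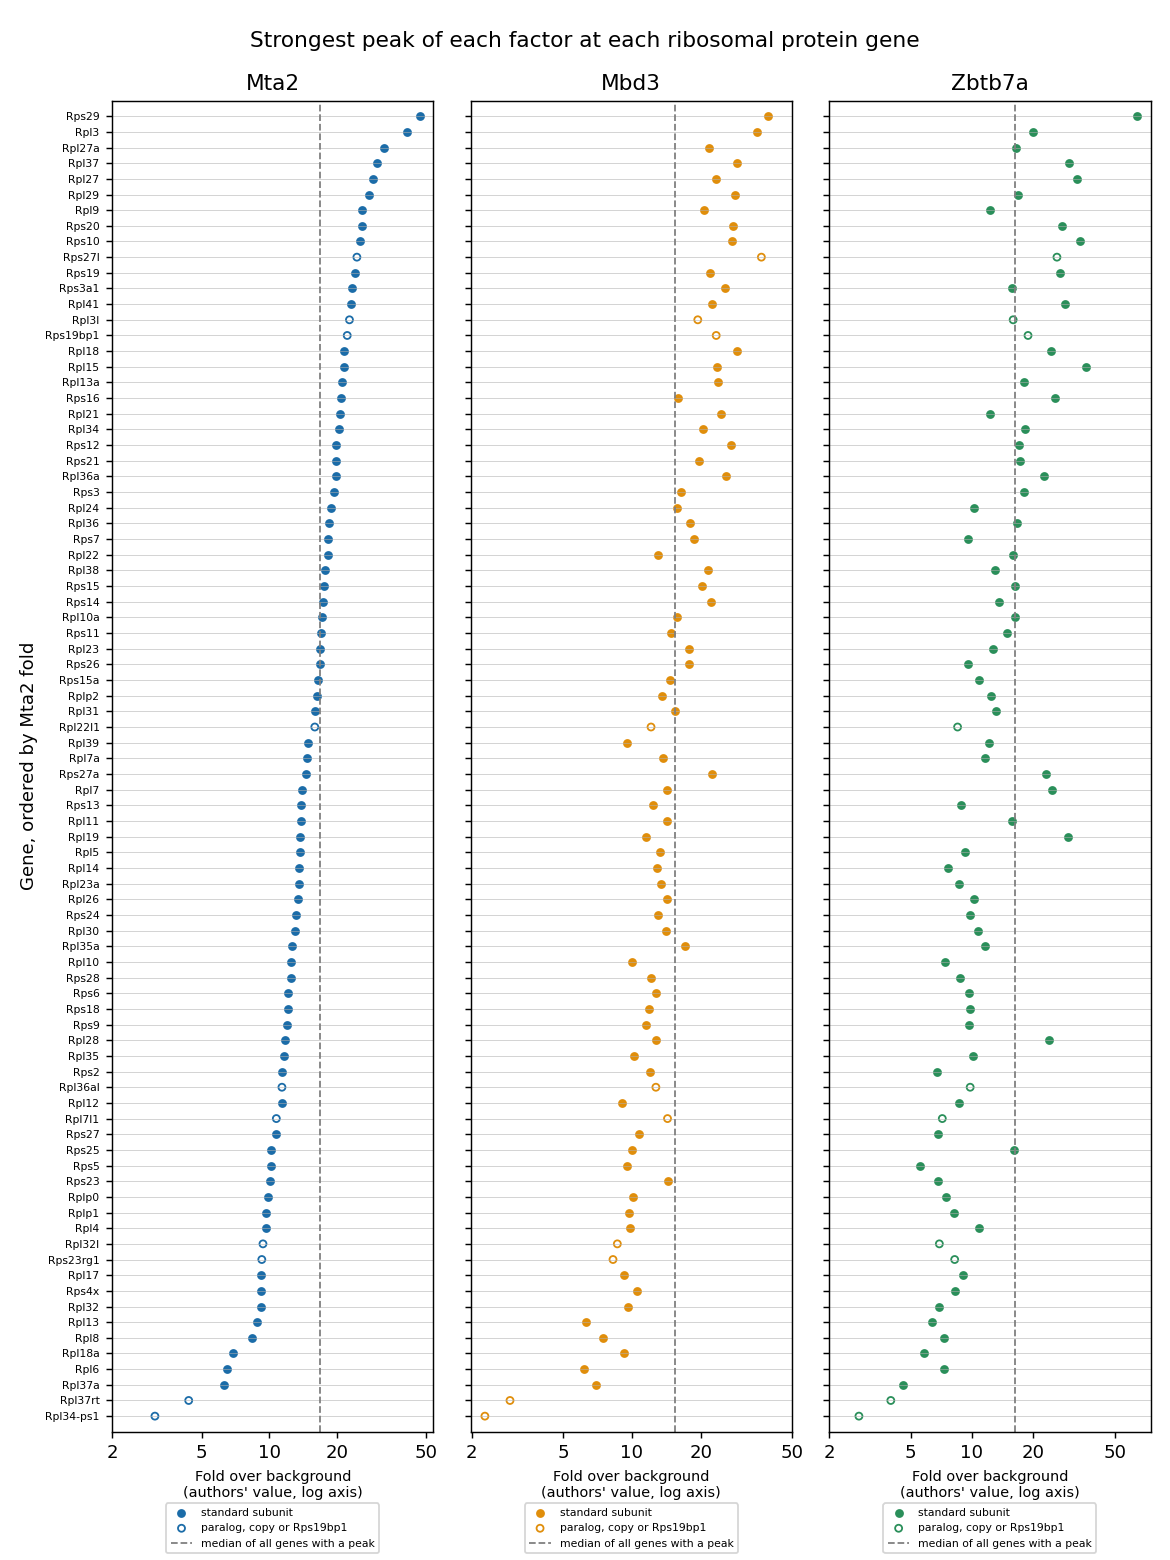
Fold of the strongest Mta2, Mbd3 and Zbtb7a peak (x axes, log scale, the authors' values) at 84 of the 86 ribosomal protein genes with a peak, ordered by Mta2 fold. Filled points are standard subunits, open points are paralogs, copies and Rps19bp1, and the dashed line is the median of all genes with a peak (16.8, 15.4 and 16.2); Rpl19 and Rpl28 stand further right in the Zbtb7a panel than genes next to them in the order.

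Among large subunit genes, Rpl3 ranked highest for Mta2 and Mbd3. Rpl3, whose product reaches the peptidyl transferase centre, had folds of 40.9 for Mta2 and 35.2 for Mbd3 (percentiles 95.8 and 93.6), and of 19.9 for Zbtb7a (percentile 61.4). It carried 4 Mta2, 4 Mbd3 and 3 Zbtb7a summits. Rpl27a had folds of 32.4, 21.7 and 16.4 for Mta2, Mbd3 and Zbtb7a. Rpl37, which encodes a zinc-binding protein, was high in all 3 lists with folds of 30.0, 28.6 and 29.8, at summits 119 to 138 bp upstream of its start and inside the neighbouring gene Card6. Rpl27 had 28.9, 23.2 and 32.9, with summits 11 to 37 bp downstream of the start, just past the tandem ETS letters printed above. Rpl15, a protein of the large subunit core, had 21.5, 23.6 and 36.4. Rpl18 had 21.5, 28.8 and 24.5, but its strongest Mta2 and Zbtb7a peaks lay at the end shared with Sphk2 and only its strongest Mbd3 peak at the listed start.

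Among small subunit genes, Rps29 had the highest fold of all 90 genes in every list. Rps29, which encodes a small zinc-binding protein, had folds of 46.9 for Mta2, 39.4 for Mbd3 and 64.1 for Zbtb7a (percentiles 98.0, 96.0 and 98.7). The summits lay 264 to 269 bp beyond the upper end of the gene (chr12:69157722-69159186) and inside Rn7s1 (chr12:69159295-69159593), a gene of the 7SL RNA of the signal recognition particle. Binding at Rps29 and binding at Rn7s1 cannot be told apart from these intervals, and 7SL RNA genes have many near-identical copies. Rps10, a protein at the entry of the messenger RNA channel, had folds of 25.4, 27.4 and 33.7.

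At the low end stood Rpl37a, Rpl6 and 2 copies. Rpl37a, a zinc-binding protein of the large subunit, had folds of 6.28 for Mta2, 6.98 for Mbd3 and 4.57 for Zbtb7a. Rpl6 had 6.50, 6.20 and 7.29. These are standard subunits of the same particle as Rpl3 and Rps29. The stalk genes, whose products recruit translation factors to the large subunit, were also low to middling. Rplp0 had folds of 9.84, 10.1 and 7.43, Rplp1 9.63, 9.72 and 8.20, and Rplp2 16.2, 13.5 and 12.4.

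Diamond-Blackfan anaemia is a failure of red cell production known from loss of 1 copy of a ribosomal protein gene in people. Its 9 listed genes all carried the 3 factors, as did all 76 standard subunit genes, beside 74.7% of all protein-coding genes. The 9 listed genes had median folds of 13.8 for Mta2, 17.1 for Mbd3 and 9.80 for Zbtb7a, at median percentiles of 38.1, 56.7 and 26.8. Rps19, the most frequently affected, had its strongest peaks near the 3′ end, with folds of 24.1, 22.0 and 27.1, and peaks of 20.9, 17.0 and 21.1 at the start. Rpl5 and Rpl11, which join 5S RNA and can bind Mdm2, had Mta2 folds of 13.7 and 13.8, Mbd3 folds of 13.3 and 14.2 and Zbtb7a folds of 9.21 and 15.6. Rps26 (16.9, 17.7 and 9.58) and Rps7 (18.3, 18.8 and 9.55) stood near the middle of the Mta2 and Mbd3 lists and at percentiles of 26.0 and 25.8 of the Zbtb7a list. Also among them were Rps24 (13.2, 13.0 and 9.80) and Rpl35a (12.7, 17.1 and 11.6). Rps10 was the highest of the 9 for all 3 factors.

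Zbtb7a and Mta2 ranked some of the genes differently. The Zbtb7a percentile was below the Mta2 percentile at 62 of the 86 genes and above it at 24, with a median difference of -4.64 percentile points. Over all 16158 genes with all 3 factors, the Zbtb7a percentile was the lower at 54.4%. The Mbd3 percentile was above the Mta2 percentile at 61 of the 86 genes, with a median difference of 3.91. The same share over all genes was not counted, so this cannot be called particular to ribosomal protein genes. Among the genes furthest toward Zbtb7a were Rpl19 (Zbtb7a percentile 81.1, Mta2 percentile 37.9) and Rpl28 (70.7 and 29.8). At Rpl28 the summits lay 95 bp upstream of the start for Zbtb7a and 98 bp upstream for Mta2, so the difference was in height and not in place. At Rpl19 the strongest summits lay in the neighbour Cacnb1, far upstream of the start listed for Rpl19. At that start itself, Rpl19 had folds of 7.62 for Zbtb7a, 8.11 for Mta2 and 8.64 for Mbd3, at percentiles of 18.3 to 23.7 among start peaks. The genes furthest the other way were Rpl9 (Zbtb7a percentile 36.3, Mta2 percentile 78.8), Rpl27a (50.9 and 89.3) and Rpl3 (61.4 and 95.8). Whether these differences hold between replicates could not be tested with merged lists.

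**Figure D5:**
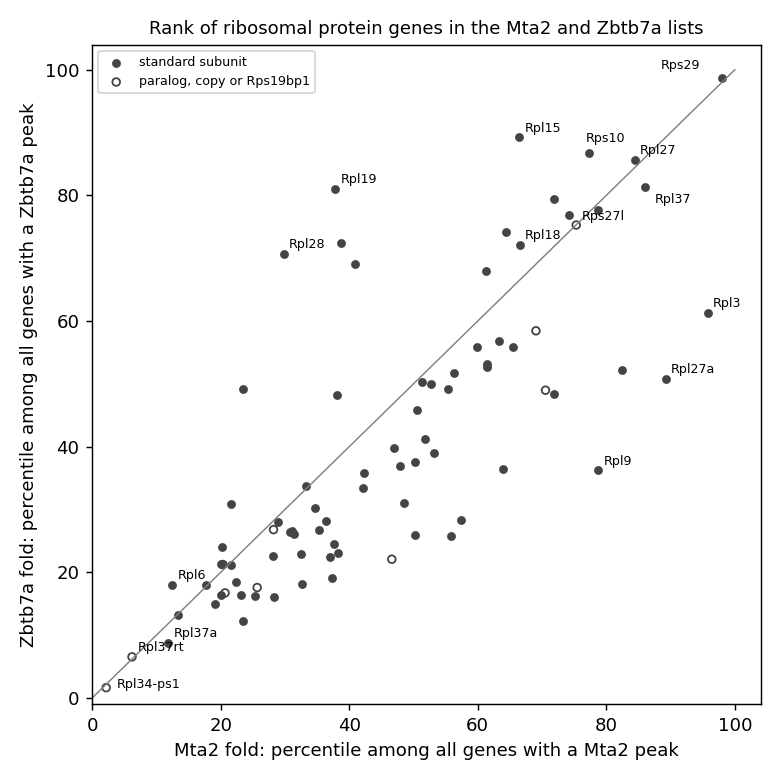
Percentile of the strongest Zbtb7a peak among all genes with a Zbtb7a peak (y axis) against that of the strongest Mta2 peak among all genes with a Mta2 peak (x axis) for 84 of the 86 ribosomal protein genes with a peak, with the line of equal rank. Most points lie below the line; Rpl19 and Rpl28 lie far above it, and Rpl9, Rpl27a and Rpl3 furthest below.

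Neighbouring genes share some of these peaks. Another protein-coding gene lies within 1 kb of 36 of the 90 genes, and the strongest Mta2 summit lay inside another RefSeq gene at 17. The same shares over all genes were not counted. Among standard subunits, the 29 with such a neighbour had median folds of 13.8, 13.5 and 11.6 for Mta2, Mbd3 and Zbtb7a, and the 47 without had 16.4, 14.4 and 12.6. Of the 54 ribosomal protein genes without a neighbour, 52 (96.3%) carried all 3 factors, beside 74.7% of all genes with or without a neighbour. The part of neighbouring genes in these peaks was not tested. Rpl41, which encodes the smallest subunit protein, had its strongest summits in Zc3h10 with a Mta2 fold of 23.2, while the peak at its own start had a fold of 8.74. Rpl4 had its strongest peaks beyond the far end of the gene, where Snapc5 lies, with a Mta2 fold of 9.62, and start peaks of 4.12 for Mta2, 3.95 for Mbd3 and 2.50 for Zbtb7a. The start peak of Rpl4 was the lowest of the 64 for all 3 factors. Rpl41 and Rpl4 were chosen for mention after their values were seen. Many of these genes also host small nucleolar RNAs (snoRNAs), which guide modification of ribosomal RNA, in their introns. The 29 standard subunit genes with a snoRNA inside had median folds of 14.8, 13.7 and 12.1, and the 47 without had 14.5, 14.7 and 12.9, a small difference beside the range within each set.

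The paralogs, copies and Rps19bp1 had lower median folds than the standard subunits. The 10 of 14 with peaks had medians of 11.1 for Mta2, 12.4 for Mbd3 and 8.37 for Zbtb7a, against 14.8, 14.3 and 12.3 for the 76 standard subunits, and the ranges of both sets overlapped widely. Rps27l, a paralog of Rps27 known as a target of p53, was the highest, with folds of 24.5, 36.8 and 26.1, and its Mbd3 fold was the second highest of the 90 genes. Rps19bp1, whose product binds Rps19 and Sirt1, had 22.2, 23.3 and 18.8. Rpl3l, the paralog of Rpl3 known from heart and skeletal muscle, had 22.7, 19.4 and 15.9, and its strongest Mta2 peak lay 368 bp beyond the gene near Msrb1. Rpl22l1 (15.9, 12.1 and 8.50), Rpl36al (11.4, 12.7 and 9.80) and Rpl7l1 (10.8, 14.3 and 7.16) had a peak at the start. These 3 are close in sequence to Rpl22, Rpl36a and Rpl7. The copies were low, with Rpl32l, which lies within Map7, at 9.37, 8.64 and 6.92, and Rps23rg1 at 9.26, 8.27 and 8.23. Rpl37rt had folds of 4.38 for Mta2 and 2.93 for Mbd3 at the far end of the gene and no peak at its start. Rpl34-ps1 had the lowest folds of the 86, at 3.10, 2.28 and 2.79.

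Rpsa and Fau, ribosomal protein genes whose symbols fall outside the rule, were occupied too. Rpsa had a Mta2 fold of 9.47 and Fau of 16.0, and each carried Mbd3 and Zbtb7a as well.

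Other genes of ribosome production and translation were also mostly occupied. All 3 factors were found in the gene or within 1 kb at 11 of the 11 RNA polymerase I genes that could be matched, of 14 listed, beside 74.7% of all protein-coding genes. Ubtf (Mta2 fold 36.4), the factor that opens ribosomal DNA, and Polr1a (22.6), the largest subunit, were highest. The 3 factors were found at 29 of 29 ribosome assembly genes, with Dkc1 (30.6), which makes pseudouridine in ribosomal RNA, and Nob1 (27.5), which cuts the small subunit RNA, highest. The same was so at 18 of 18 translation genes whose transcripts carry a pyrimidine tract or whose products act on the ribosome, with Tpt1 (55.7) and the initiation factor Eif4b (49.7) highest. All 16 regulators of ribosome production were occupied, with the transcription factor Sp1 (84.2) and Larp1 (46.9), which binds pyrimidine tract transcripts, highest. Within 1 kb of a listed start, all 3 factors were found at 11 of 11 polymerase I genes, 21 of 22 assembly genes, 11 of 11 translation genes and 12 of 13 regulators, beside 64.0% of all genes. The median Mta2 percentile was 41.5 for the ribosomal protein genes, against 41.9 for polymerase I genes, 50.3 for assembly genes, 55.3 for translation genes and 74.1 for regulators. In the Zbtb7a list it was 34.7 for the ribosomal protein genes, against 36.7, 40.1, 57.5 and 75.4. With start peaks alone, ranked among start peaks, the Mta2 median was 47.6 for ribosomal protein genes. It was 38.6 for polymerase I, 42.9 for assembly and 56.4 for translation genes, and 72.8 for regulators. The Zbtb7a medians there were 35.0, against 31.4, 30.0, 64.7 and 72.4. Ribosomal protein genes thus stood above polymerase I and assembly genes at starts. Median spans were 3169.5 bp for ribosomal protein genes, against 21317, 13923, 7319 and 28048.5 bp. The part of gene length in these ranks was not tested.

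Mitochondrial ribosomal protein and proteasome subunit genes, likewise known for expression in nearly all tissues, were set beside the ribosomal protein genes. The mitochondrial set, whose genes encode the separate ribosome of mitochondria, carried all 3 factors at 78 of 78, and proteasome subunit genes at 48 of 51, beside 74.7% of all genes. Median percentiles of the ribosomal protein genes were 41.5, 44.7 and 34.7 for Mta2, Mbd3 and Zbtb7a, against 50.5, 55.3 and 40.9 for the mitochondrial set and 48.7, 51.9 and 43.2 for the proteasome. The Zbtb7a percentile was the lowest of the 3 in each of these sets. With start peaks alone, ranked among start peaks, the ribosomal protein genes had medians of 47.6, 50.4 and 35.0. The mitochondrial set had 54.5, 60.9 and 40.2 there, and the proteasome 47.3, 55.2 and 46.7. For Mta2 the ribosomal protein and proteasome genes were thus about level at starts. Median spans were 3169.5 bp for ribosomal protein genes, 7690.5 bp for the mitochondrial set and 11567 bp for the proteasome. No difference between the sets was tested, nor was the part of gene length.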

How the data were processed

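ChIP-seq of Mta2, Mbd3 and Zbtb7a and Input chromatin was carried out on kidney cortex of Mta2flx/flx mice, with 2 replicates per group whose titles carry the same 2 numbers in all 4 groups. Chromatin was fixed with disuccinimidyl glutarate and formaldehyde before shearing, per the labels' protocols, and the depth of single libraries was not analysed here. The submitters' processing notes name the aligner Bowtie2, MACS2, bedtools and deepTools, and the build mm10. Versions, settings and the use of Input were not given in the sources used for this work.

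The deposited lists follow the narrowPeak layout, read from the values because they have no header. For each peak the authors' file gives a score, a fold enrichment (a ratio over background), the −log10 p-value and −log10 q-value of the peak caller, and the offset of the summit. The deposited score and −log10 p were not used. Fold and −log10 q described, ranked and filtered peaks within a list.

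A peak was assigned by its summit to each gene whose RefSeq span (GRCm38.p6, same coordinates as mm10) or flank of 1 kb held it; the strongest peak was that of highest fold. Starts and sequences came from the RefSeq promoter table. Python 3.11.15, pandas 2.3.3, numpy 2.4.6 and matplotlib 3.10.9 were used, and the assignment was tested on simulated peaks. No p-values were computed, since each factor has 1 list. Named genes were those without a peak, the 5 of highest and 3 of lowest fold per factor, the 3 furthest apart in rank each way between Zbtb7a and Mta2, stalk genes, paralogs and copies, Diamond-Blackfan genes and the 2 highest of each pathway list. The genes, lists and comparisons were chosen with earlier results of these data known. A few genes that the rule for named genes includes are not reported here one by one, and they remain in the counts and medians. Other windows, thresholds and memberships were tried as alternatives.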

Additional observations from a re-analysis of the deposited data

How the results depend on the processing

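The share of ribosomal protein genes with a peak stayed close to that reported, between 92.2% and 100% for each factor and for all 3, under stricter limits (−log10 q from 10 up, or fold from 5 up), windows of 0.5 and 3 kb, assignment by any overlap, listed starts alone and standard subunits alone. Over all genes, the share with all 3 was 70.5% under the limit on −log10 q and 66.4% under the limit on fold. It was 73.8% with 0.5 kb, 76.6% with 3 kb, 75.1% by any overlap and 64.0% at listed starts. The strongest intervals of all 3 overlapped at 82 of 90 (91.1%), beside 60.6% of all genes. Without genes that have a neighbour within 1 kb, 52 of 54 were left for each factor and for all 3. All genes, with or without a neighbour, had all 3 at 74.7%. Only the gene span without flanks moved the share of ribosomal protein genes further, to 38 genes for Mta2, 35 for Mbd3, 32 for Zbtb7a and 29 for all 3. All genes then stood at 67.5%, 66.2%, 65.8% and 61.1%. The median folds reported (14.7, 14.2 and 11.9 for Mta2, Mbd3 and Zbtb7a) had no spread between replicates to be judged by. They became 14.3 (Mbd3) and 12.1 (Zbtb7a) under the limit on −log10 q, and 14.8, 14.3 and 12.2 under the limit on fold. They were 14.8 (Mta2) and 11.6 (Zbtb7a) with 0.5 kb, and 16.0, 14.6 and 12.6 with 3 kb. With the span alone they were 12.9, 13.3 and 9.23, and the Mbd3 median then stood just above that of all genes (13.0). They were 14.8 (Mta2) and 11.2 (Zbtb7a) at listed starts, 12.2 (Zbtb7a) by any overlap, 14.8, 14.3 and 12.3 for standard subunits, and 16.2, 14.4 and 12.4 without neighbours. In the 150 bases before the start, the ETS core was left in 22 genes (31.9%, against 12.2% of all genes). The YY1 letters were left in 6 (8.70%, against 4.30%) and the NRF1 letters in 4 (5.80%, against 3.20%). TATAAA was left in 3 (4.35%, against 7.92%), CTTCCCC in 2 (2.90%, against 5.45%) and the E box in 1 (1.45%, against 4.75%). The cause of these shifts was not tested. No paired analysis was possible because each list merges both replicates, and for the same reason no replicate could be left out.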
